A study of Solanum lycopersicum and Solanum tuberosum and Capsicum annuum and Nicotiana tabacum with 10 samples.

Results

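Among the potato genes that carry only a locus name on this array, 27 set pepper leaves apart from the leaves of tomato, tobacco, N. benthamiana and petunia. In 19 of them the log2 ratio to potato was lowest in pepper, and in 8 it was highest in pepper. They were found among 339 genes with 1 LOC symbol, 327 of which had a mean in all 5 species. A LOC symbol is the name NCBI uses, made from the gene's database number, where no other symbol has been assigned. The tables used here hold no descriptions of these genes, so none is given a role. All spots of a symbol were averaged per array and then per species. A gene was taken when its pepper mean lay at least 0.6 on the log2 scale above the highest or below the lowest of the other 4 species means. It was left out when all 5 means were above 1, all below -0.5 or all between -0.4 and 0.4. These means chose the genes, so the distance of pepper from the other species is given as a description throughout, without a test.

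The study compared transcript sequences of 6 nightshades, and the arrays, which carry potato cDNA clones, served as an experimental look at how well sequences are conserved among them. Leaf RNA of pepper (Capsicum annuum), tomato, tobacco, N. benthamiana and petunia was labeled with Cy3 and each hybridized on 2 arrays, 10 arrays in all, against potato leaf RNA labeled with Cy5. All plants were untreated and grown at 25°C with 16 h of light and 8 h of darkness, and mature leaves were harvested after 4 to 6 weeks. One potato extract was used for the 5 replicate 1 arrays and another for the 5 replicate 2 arrays. Separate plants per extract are not stated in the labels, so the p-values reflect the spread of these arrays alone, which may be technical. No cultivar, plant number or pooling is given in the labels used here. The files hold ratios and no signal of a single channel, so the leaf identity of the RNA was not checked against leaf markers.

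A nightshade transcript from another species binds to a potato clone as far as their sequences match. Pepper belongs with tomato and potato to the Solanum side of the family, while the Nicotiana species and petunia branched off earlier. On a 2-colour array the value of a gene is the ratio of the signals of 2 RNA samples at 1 spot, so a gene can differ from potato through the amount of its transcript or through the fit of that transcript to the clone. For a single gene these cannot be told apart here. The paper grouped the probes by sequence similarity and compared the median signal of the groups. Signal rose with similarity in potato too, and the paper concluded that probe divergence did not limit reliable detection. That reading is of groups of probes and was not tested for the genes here. In whole leaves, fewer cells of a type and less RNA per cell cannot be told apart either. Where species are compared with each other, any effect of a dye on a gene cancels. Potato cancels only between arrays that share a potato extract, or between means over both extracts.

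A positive log2 ratio is likely a brighter signal in potato. No source used here gives the direction, and this reading rests on 2 points. The array titles name potato first, and the differences of the other query species from tomato had a positive skewness in each of 8 comparisons within a replicate, as low as 0.031 for pepper in replicate 1 and 0.145 in replicate 2. The comparisons of a replicate share 1 tomato array, so their signs are not independent. A pepper value below the others is thus likely a stronger pepper signal, and a pepper value above them a weaker one. Above, below, high and low refer to the ratio throughout. With the opposite direction these readings of signal would turn round, while the counts and distances would stay. A single array gave a value for 9279 clones in the lowest case, pepper replicate 1, and for 10439 in the highest. The correlation of the 2 pepper arrays across clones, which are not independent, was 0.894, against 0.941 for tomato and 0.873 for N. benthamiana at the ends of the range for the other species. The deposited values stand for ratios with 2 decimals, so high positive values are coarse.

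**Figure D1:**
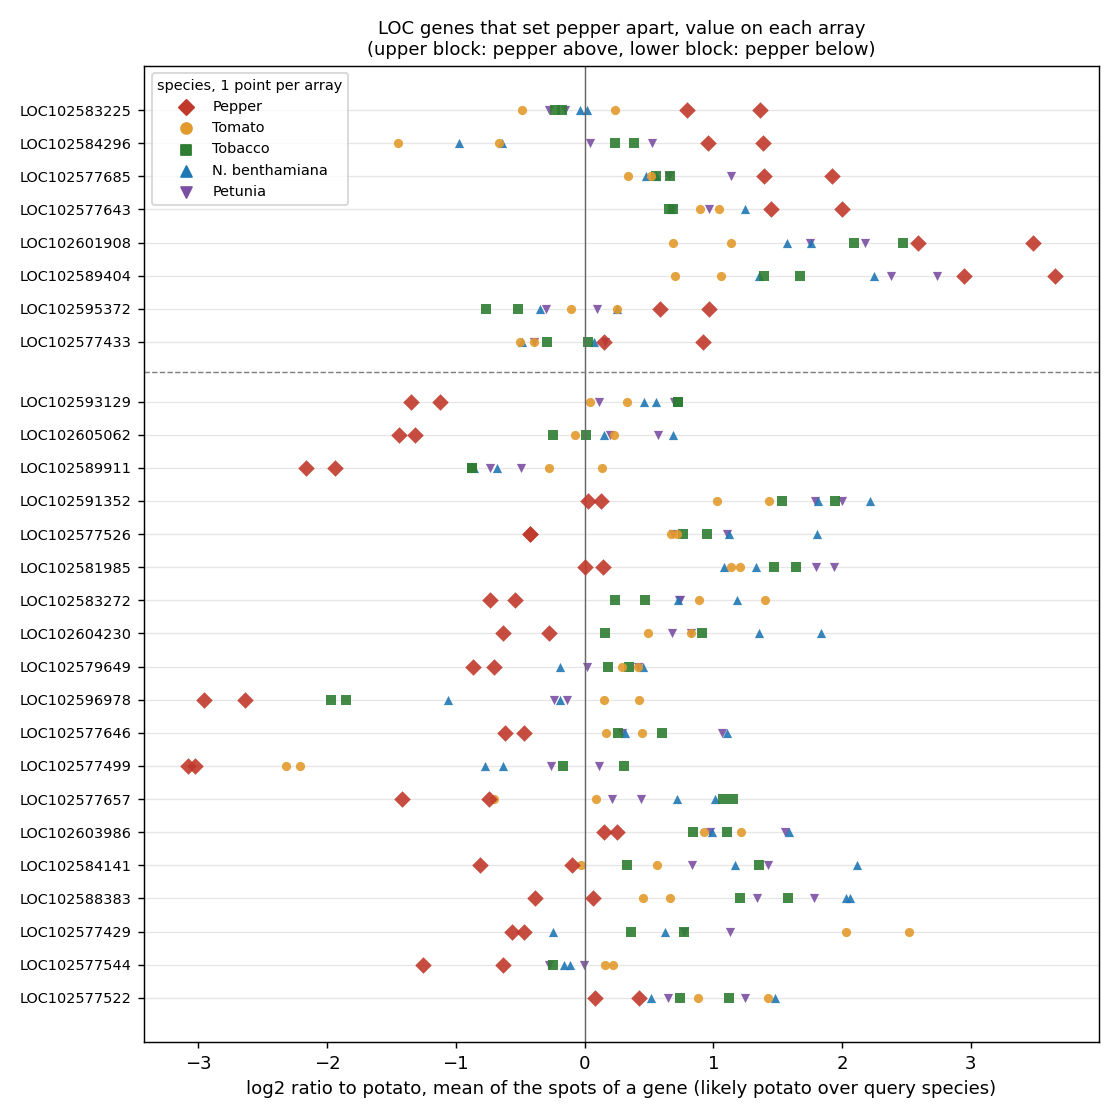
Log2 ratio to potato on each of the 10 arrays (x axis, mean of the spots of a gene) for the 27 genes (rows), with 8 genes with pepper above in the upper block and 19 with pepper below in the lower block. Each point is 1 array, red diamonds are pepper, and in 7 of 8 and 19 of 19 rows both pepper arrays lie outside the other arrays. This follows largely from how the genes were chosen.

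The genes with pepper below the others lay 0.68 to 1.42 from the nearest other species mean, with a median of 0.89, or 1.61 to 2.68 times on the linear scale. The median over these 19 genes was -0.54 in pepper, against 0.35 for tomato, 0.56 for tobacco, 0.87 for N. benthamiana and 0.74 for petunia. Over all 327 LOC genes the medians were 0.22 in pepper, against 0.12 for tomato, 0.30 for tobacco, 0.37 for N. benthamiana and 0.27 for petunia. In all 19 genes both pepper arrays lay below all arrays of the other species with a value. This held for 11.5% of the 295 LOC genes with a value on all 10 arrays, and for these genes it follows largely from how they were chosen.

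LOC102593129 stood farthest from its nearest neighbour. It had -1.12 and -1.35 in pepper, against 0.04 and 0.33 in tomato, 0.72 and 0.73 in tobacco, 0.46 and 0.55 in N. benthamiana and 0.70 and 0.11 in petunia, in replicates 1 and 2. Both pepper arrays were negative and all 8 others positive. The pepper mean of -1.24 lay 1.42 below that of tomato, which is a 2.68-fold difference, and 1.69 below the mean of the other 4 species. The distance was 1.16 among the replicate 1 arrays and 1.46 among the replicate 2 arrays. The gene has 1 clone, and its duplicate spots gave -0.98 and -1.26 on pepper array 1 and -1.27 and -1.43 on pepper array 2.

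LOC102605062, with 3 clones, had -1.44 and -1.32 in pepper, against -0.08 and 0.23 in tomato, -0.24 and 0.01 in tobacco, 0.15 and 0.69 in N. benthamiana and 0.20 and 0.57 in petunia. The ratio was far below 0 in pepper, while N. benthamiana, with a mean of 0.42, was the farthest of the others from 0. LOC102589911 had -1.94 and -2.16 in pepper, against 0.14 and -0.27 in tomato, -0.88 on both arrays in tobacco, -0.68 and -0.86 in N. benthamiana and -0.49 and -0.73 in petunia. Here tomato lay near potato, the Nicotiana species and petunia lay lower, and pepper lay 1.17 below the lowest of them, tobacco.

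In some genes pepper lay near the potato level and the other species did not. LOC102591352 had 0.03 and 0.13 in pepper, against 1.44 and 1.03 in tomato, 1.54 and 1.94 in tobacco, 1.81 and 2.22 in N. benthamiana and 1.79 and 2.0 in petunia. LOC102581985 had 0.01 and 0.14 in pepper, against 1.13 and 1.21 in tomato, 1.47 and 1.64 in tobacco, 1.08 and 1.33 in N. benthamiana and 1.79 and 1.94 in petunia. All 8 arrays of the other species were above 1 in both genes, while no pepper array exceeded 0.14. The pepper means lay 1.15 and 1.10 below tomato, the nearest species in both.

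In other genes, pepper and the other species lay on opposite sides of potato. LOC102577526 had -0.43 on both pepper arrays, against 0.72 and 0.67 in tomato, 0.95 and 0.76 in tobacco, 1.80 and 1.13 in N. benthamiana and 1.11 and 0.69 in petunia. LOC102583272 had -0.54 and -0.73 in pepper, against 1.40 and 0.89 in tomato, 0.24 and 0.47 in tobacco, 0.73 and 1.19 in N. benthamiana and 0.74 and 0.73 in petunia. Neither gene had a pepper array above 0 or another array below 0. LOC102604230 showed the same signs with -0.28 and -0.63 in pepper, against 0.49 and 0.82 in tomato, 0.92 and 0.16 in tobacco, 1.36 and 1.84 in N. benthamiana and 0.83 and 0.68 in petunia. Its pepper values come from 1 spot per array, since only 2 of its 4 pepper spots had a value.

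LOC102579649 had -0.70 and -0.87 in pepper, against 0.42 and 0.29 in tomato, 0.35 and 0.18 in tobacco, 0.45 and -0.19 in N. benthamiana and 0.42 and 0.02 in petunia. It was again a gene with pepper alone away from potato. Only 4 of its 8 pepper spots had a value, all from 1 of its 2 clones, while the other species had values from both. In that clone alone the distance was 0.86. LOC102596978, with 3 clones, had -2.64 and -2.95 in pepper, against 0.42 and 0.15 in tomato, -1.85 and -1.97 in tobacco, -0.19 and -1.06 in N. benthamiana and -0.14 and -0.24 in petunia. Tobacco was the next lowest species, 0.89 above pepper, and tomato the highest.

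Grouped by where pepper and the mean of the other 4 species stood, with 0.4 as the limit of nearness to potato, 8 of the 19 genes had pepper and the others on opposite sides, 5 had the pepper ratio near 0 and the mean of the others above it, 3 had the pepper ratio below 0 and the mean of the others near it, and 3 had both pepper and that mean on the negative side. In the group on opposite sides, pepper means ran between -1.24 and -0.43 and the means of the others between 0.46 and 1.0. Across all 327 LOC genes, opposite sides were found in 11 genes, or 3.36%. The grouping was made after the values were seen. In 5 genes both pepper arrays were negative and all 8 others positive, namely LOC102593129, LOC102577526, LOC102583272, LOC102604230 and LOC102577646. Such a contrast of signs, in either direction, occurred in 9 of the 295 LOC genes with a value on all arrays (3.05%), and choosing genes for a distance from the others favours it.

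**Figure D2:**
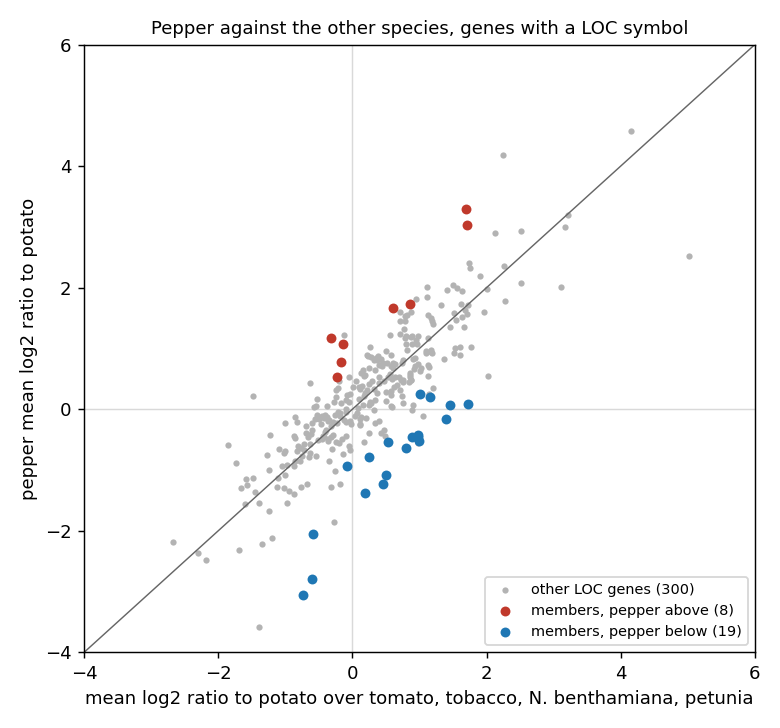
Pepper mean log2 ratio to potato (y axis) against the mean of tomato, tobacco, N. benthamiana and petunia (x axis) for 327 LOC genes, with the line of equality. The 8 genes with pepper above (red) lie over the line and the 19 with pepper below (blue) under it, 8 of these with pepper under -0.4 and the others over 0.4. The remaining 300 genes are grey.

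The genes with pepper above the others were fewer and stood less far off. Their distance from the nearest species was 0.65 to 1.09 with a median of 0.75, or 1.57 to 2.13 times on the linear scale. Both pepper arrays lay above all 8 other arrays in 7 of these 8 genes, against 7.8% of the 295 LOC genes with a value on all arrays. For these 8 genes, too, it follows largely from how they were chosen. In 4 genes the pepper ratio was above 0 and the mean of the others near it, and in 4 both pepper and that mean were on the positive side. No gene of this direction had pepper near potato and the others away.

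LOC102583225 had the largest distance in this direction. It had 1.36 and 0.80 in pepper, against 0.24 and -0.48 in tomato, -0.17 and -0.23 in tobacco, 0.02 and -0.04 in N. benthamiana and -0.15 and -0.27 in petunia. The 4 other species spanned only 0.20 between their means, all near potato, while pepper lay 1.09 above N. benthamiana. Of its 12 pepper spots, 8 had a value.

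LOC102584296 had 1.39 and 0.96 in pepper, against -0.67 and -1.45 in tomato, 0.39 and 0.24 in tobacco, -0.64 and -0.97 in N. benthamiana and 0.53 and 0.05 in petunia. Tomato and pepper lay at opposite ends of this gene, although these species are close relatives. LOC102595372 had 0.96 and 0.58 in pepper, against 0.25 and -0.10 in tomato, -0.52 and -0.76 in tobacco, 0.25 and -0.34 in N. benthamiana and 0.09 and -0.30 in petunia. In both genes the lower pepper array was above every array of the other species.

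LOC102589404 had 3.65 and 2.95 in pepper, against 1.06 and 0.70 in tomato, 1.67 and 1.40 in tobacco, 2.25 and 1.36 in N. benthamiana and 2.74 and 2.38 in petunia. LOC102601908 had 3.48 and 2.59 in pepper, against 1.14 and 0.69 in tomato, 2.48 and 2.09 in tobacco, 1.76 and 1.57 in N. benthamiana and 2.18 and 1.75 in petunia. All 10 arrays were positive in both genes, with pepper at the top and tomato at the bottom. The lower pepper array of LOC102601908 lay only 0.11 above the highest other array, and that of LOC102589404 0.21. On the lower pepper array of LOC102601908, 1 spot had 1.47, while the other spots had 2.64, 3.18 and 3.06. With the median of the spots, the distance of this gene was 0.85, against 0.75 with their mean.

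LOC102577685 had 1.92 and 1.40 in pepper, against 0.52 and 0.34 in tomato, 0.67 and 0.56 in tobacco, 0.47 and 0.56 in N. benthamiana and 1.14 and 0.66 in petunia. LOC102577643 had 2.0 and 1.45 in pepper, against 0.89 and 1.04 in tomato, 0.69 and 0.65 in tobacco, 1.24 and 0.67 in N. benthamiana and 0.97 and 0.68 in petunia. Pepper again lay at the top of arrays that were all positive.

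At the edge of the rule, LOC102577433 was just inside with a distance of 0.65, which was 0.26 without pepper replicate 1, 1.03 without pepper replicate 2 and 0.37 without petunia replicate 2. It had 0.92 and 0.15 in pepper, against -0.40 and -0.50 in tomato, 0.02 and -0.29 in tobacco, 0.07 and -0.49 in N. benthamiana and 0.16 and -0.40 in petunia. Its lower pepper array was no higher than the petunia array of replicate 1, the single overlap among the 27 genes. Those arrays had different potato extracts. Within a replicate, the distance of this gene was 0.755 in replicate 1 and 0.44 in replicate 2. LOC102577777 was just outside with 0.54 (pepper mean -0.13, nearest mean -0.68 in petunia). On the other side LOC102577522 was just inside with 0.68, which was 0.27 without N. benthamiana replicate 2 and 0.40 without petunia replicate 2. It had 0.08 and 0.42 in pepper, against 0.88 and 1.43 in tomato, 0.74 and 1.12 in tobacco, 0.52 and 1.48 in N. benthamiana and 0.65 and 1.25 in petunia. LOC102577525 was just outside with 0.55 (pepper mean -0.44, nearest mean 0.11 in tomato). A further 4 genes met the distance but were left out because all 5 means lay above 1 or all below -0.5. The farthest of these was LOC102598951, at -3.59 in pepper against -1.54 to -1.14 in the others.

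The rest of the 19 genes with pepper below were described by their means. LOC102577646 had -0.54 in pepper, against 0.31 to 0.71 in the others. LOC102603986 had 0.20 in pepper and 0.98 to 1.29 in the others, and LOC102584141 had -0.46 in pepper and 0.27 to 1.64 in the others. LOC102577544 had -0.94 in pepper and -0.24 to 0.19 in the others, with tobacco replicate 1 missing. Its nearest species was tobacco, so potato does not fully cancel in its distance of 0.70. Among replicate 2 arrays alone the distance was 1.01. This was the one gene without a value on all arrays. LOC102577499, LOC102577657, LOC102588383 and LOC102577429 differed most among the other species and are given with that test.

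Applied to all features on the array with a mean in all 5 species, that is genes with a single symbol and clones with none or several, the same rule on pepper took 560 of 9454 (5.92%), with 211 above (2.23%) and 349 below (3.69%). It took 8.26% of the 327 LOC genes. The lean to values below in pepper was therefore also present over the whole array. With each other species in the place of pepper, the rule took 35 LOC genes for tomato (5 above, 30 below), 12 for petunia (8 above, 4 below), 3 for tobacco (2 above, 1 below) and 2 for N. benthamiana (1 above, 1 below). Tobacco and N. benthamiana are of 1 genus, so each has a near relative among the species it is compared with. Any part of this in the counts was not tested.

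Within each potato extract the distance of pepper was measured once. Among the genes with pepper below, 18 had all species in both replicates, and in 14 of these the distance was at least 0.6 in both. In all 18 it was above 0 in both. The least even was LOC102577657, with 1.51 among replicate 1 arrays and 0.04 among replicate 2 arrays, where pepper had -0.74 and tomato -0.70. With 1 array left out, 12 of the 19 genes with pepper below always kept a distance of 0.6. In these settings 1 species has only 1 potato extract, so potato does not fully cancel. The distance was 0.38 for LOC102577657 without tomato replicate 1 and 0.44 without pepper replicate 1, against 0.78 with all arrays, and 1.17 without tomato replicate 2. LOC102577429 had 0.28 without N. benthamiana replicate 2 and 1.08 without N. benthamiana replicate 1, against 0.71 with all arrays. LOC102584141 had 0.36 without pepper replicate 2 and 0.43 without tomato replicate 1, against 0.72. These genes thus rested on single arrays, as did LOC102577544, with 0.39 without pepper replicate 2. LOC102579649 had 0.60 without N. benthamiana replicate 1, just under the limit, LOC102604230 had 0.61 without tobacco replicate 1, and LOC102588383 had 0.49 without pepper replicate 1. Among the 8 genes with pepper above, 4 kept 0.6 in both replicates and all were above 0. The distance was larger in replicate 1 in all 8 of them, and in 8 of the 18 with pepper below.

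**Figure D3:**
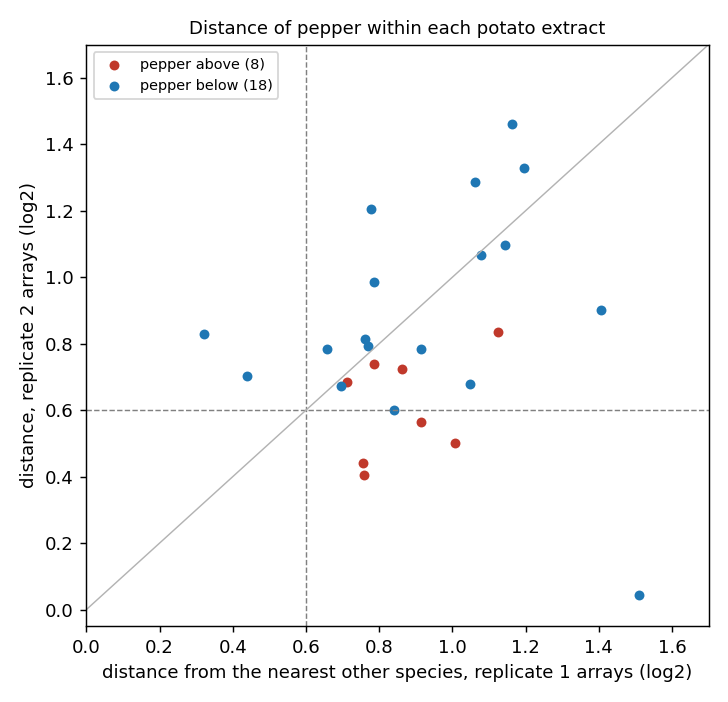
Distance of pepper from the nearest other species in the gene's own direction among replicate 1 arrays (x axis, log2) and replicate 2 arrays (y axis, log2), 1 point per gene, with dashed lines at 0.6 and the line of equality. The 8 genes with pepper above (red) all lie under the line of equality, and LOC102577657 stands alone at 1.51 and 0.04.

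The genes with pepper above also shared a difference between the replicates in every species. The replicate 1 array was higher than the replicate 2 array in 38 of 40 pairs of arrays of a species, with a median difference of 0.38. It was higher in 8 of 8 genes in pepper (median difference 0.56), against 7 genes for tomato, 8 for tobacco, 7 for N. benthamiana and 8 for petunia. Among genes with pepper below, it was higher in 48 of 94 pairs, and over all LOC genes in 63.3% of 1584 pairs with a median difference of 0.14. The pairs of a replicate share 1 potato extract. Its part in the distances was not tested, and it cancels in the distance within a replicate. Without pepper replicate 1, only LOC102583225 (0.81) and LOC102584296 (0.65) of the 8 kept a distance of 0.6, and the other 6 had 0.26 to 0.51, LOC102577433 the least. LOC102601908 then had 0.31 and LOC102589404 0.39. That setting puts pepper replicate 2 against means over both potato extracts, so the extract does not cancel in it. Among replicate 2 arrays alone, LOC102577685 had 0.74 and LOC102595372 0.68, against 0.50 and 0.51 in that setting. Within each of the 2 replicates, 4 of the 8 genes kept 0.6. LOC102601908 had 1.20 without pepper replicate 2, and LOC102577643 had 0.48 also without N. benthamiana replicate 2. In all, 5 LOC genes met the rule with pepper above without pepper replicate 1 and 16 without pepper replicate 2.

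Of the 27 genes, 11 had 1 clone on the array, 9 had 2 and 7 had 3. The genes with several clones hold 39 clones, of which 36 had a mean in all 5 species. The rest were a clone each of LOC102579649 and LOC102583225 without a pepper value, and a clone of LOC102577433 without a tobacco value. This clone of LOC102577433 had -0.19 on pepper array 2, below -0.07 on petunia array 1, each from 1 spot, although its gene had pepper above. Pepper lay beyond all other species in the direction of its gene in 34 of these 36 clones, and at least 0.6 beyond in 28. The clones of a gene entered its average, so this describes how even the genes were and is no independent support. All 3 clones of LOC102605062 had a distance between 1.18 and 1.32, and those of LOC102596978 between 0.68 and 1.28.

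In LOC102577643 the clones went apart. One clone had 2.79 and 1.94 in pepper, against 0.62 to 1.47 on the other arrays, while the second had 0.43 and 0.95 in pepper, below its tomato values of 1.17 and 1.28. The distances were 1.14 and -0.53. When the average was limited to clones measured on all 10 arrays, each with the same weight, the distance of this gene was 0.56 and no longer met the rule. LOC102577522 also rested on its average, since its clones had distances of -0.03 and 0.47, with petunia the nearest species in the first and N. benthamiana in the second. In LOC102584296 the 3 clones had 0.12, 0.95 and 1.22.

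**Figure D4:**
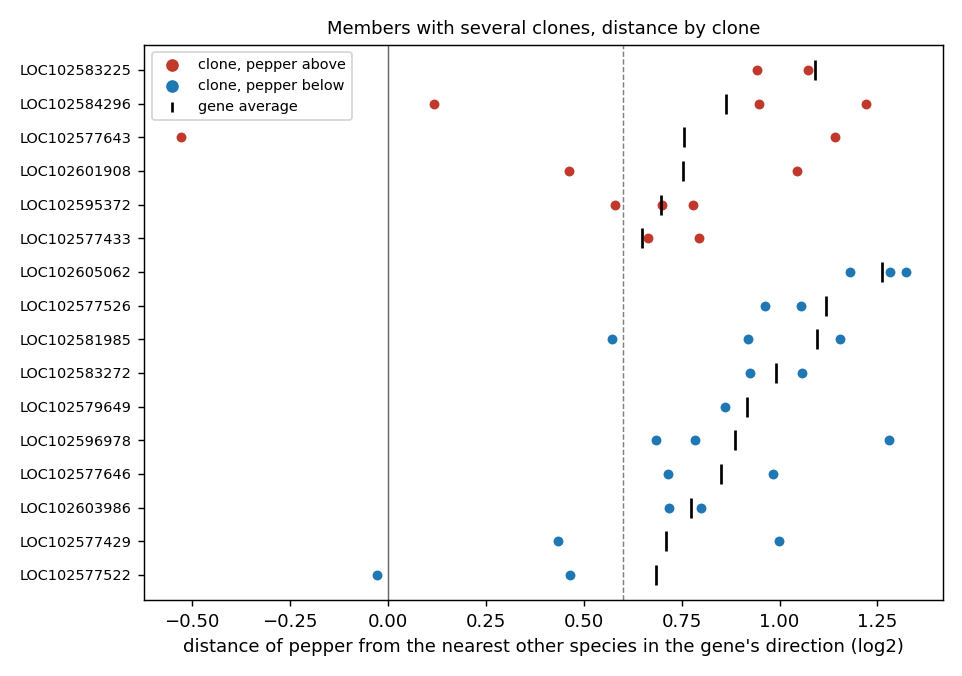
Distance of pepper from the nearest other species (x axis, log2) for each clone with a mean in all 5 species (points) of the 16 genes with several clones (rows), and for the gene average (black bars). Dashed line, 0.6. Of the 36 clones shown, 34 lie above 0, and the exceptions belong to LOC102577643 (-0.53) and LOC102577522 (-0.03).

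Detection was not part of the rule beyond 1 value per species. Of the 200 pepper spots of the 27 genes, counted over both arrays, 180 had a value (90%), against 742 of 800 spots of the other species (92.8%). Over all LOC genes the shares were 88.1% in pepper and 87.3% in the others. LOC102577433 had a value for 6 of 12 pepper spots, against 34 of 48 in the others. The duplicate spots of a clone on an array differed by a median of 0.13 in the 27 genes and 0.12 in all LOC genes. The 2 pepper arrays of a gene differed by a median of 0.34 in the 27 genes and 0.28 in all LOC genes with a value on all arrays.

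The species nearest to pepper differed with the direction. Where pepper was below, the nearest was tomato in 9 genes, tobacco in 8 and N. benthamiana in 2, and never petunia. Where it was above, the nearest was petunia in 3, tomato and tobacco in 2 each and N. benthamiana in 1, while tomato was the farthest in 5 of 8. The same lean was present over all LOC genes with pepper outside the others at any distance. Among the 77 with pepper lowest, the nearest was tomato in 37.7%, tobacco in 24.7%, N. benthamiana in 22.1% and petunia in 15.6%. Among the 73 with pepper highest, the nearest was petunia in 34.2%, N. benthamiana in 24.7%, tobacco in 23.3% and tomato in 17.8%, and tomato was farthest in 45.2%. No test was made of these counts.

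Whether the 4 other species also differed among themselves is a question the distance of pepper does not answer. It was tested with limma's F test over tomato, tobacco, N. benthamiana and petunia, adjusted over all 7943 features with a value on their 8 arrays. Of 26 members tested, 8 passed an adjusted p of 0.05 (30.8%), near the 28.2% of all features. With the replicate number as a block, 16 of the 26 passed (61.5%), against 55.8% of all features. These were the same 8 and LOC102595372, LOC102605062, LOC102589911, LOC102591352, LOC102577526, LOC102581985, LOC102604230 and LOC102584141. Single arrays were left out only in the fit without the block. A wide spread among the 4 makes it harder for a gene to meet the rule. The spread of the 4 means had a median of 0.77 in the 27 genes and 0.78 in all 327 LOC genes.

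LOC102577499 had the smallest p of the members. It had -3.08 and -3.02 in pepper, against -2.32 and -2.21 in tomato, 0.31 and -0.17 in tobacco, -0.77 and -0.63 in N. benthamiana and 0.11 and -0.26 in petunia. The adjusted p over the 4 was 0.0011 in limma's F test. Tomato lay far below tobacco and petunia, and pepper 0.79 below tomato, so pepper and tomato were the species farthest from potato. LOC102596978, whose values were given above, had an adjusted p of 0.0046 with tobacco low and tomato high. These were the only members that passed without any single array, with adjusted p up to 0.020 for LOC102577499 and 0.032 for LOC102596978.

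LOC102577429 had -0.56 and -0.47 in pepper, against 2.52 and 2.03 in tomato, 0.77 and 0.36 in tobacco, -0.24 and 0.62 in N. benthamiana and 1.13 and 0.78 in petunia (adjusted p = 0.0076 from limma). Pepper was at the bottom and tomato at the top, 2.08 above N. benthamiana. LOC102588383 had -0.39 and 0.07 in pepper, against 0.45 and 0.67 in tomato, 1.21 and 1.58 in tobacco, 2.03 and 2.06 in N. benthamiana and 1.34 and 1.78 in petunia (adjusted p = 0.013). Here pepper and tomato lay nearer to potato than the Nicotiana species and petunia. LOC102577657 had -1.42 and -0.74 in pepper, against 0.09 and -0.70 in tomato, 1.08 and 1.15 in tobacco, 0.71 and 1.01 in N. benthamiana and 0.44 and 0.22 in petunia (adjusted p = 0.028).

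Among the genes with pepper above, LOC102584296 passed with an adjusted p of 0.016, LOC102589404 with 0.028 and LOC102601908 with 0.043, all from limma's F test. Tomato was the lowest of the 4 species in each. With the block on all arrays, all 8 genes passed limma's F test, LOC102589404 with an adjusted p of 0.00049 and LOC102601908 with 0.0012. The dependence on single arrays was looked at only in the fit without the replicate block. Single arrays of the other species decided the call in 6 of the 8 genes: the adjusted p was 0.072 for LOC102577429 without tomato replicate 1, 0.057 for LOC102584296 without tomato replicate 2, 0.094 and 0.066 for LOC102588383 without tomato replicates 1 and 2, up to 0.131 for LOC102577657 without tomato replicate 2 or either tobacco array, up to 0.135 for LOC102589404 without any one array of tomato, tobacco or petunia, and up to 0.233 for LOC102601908 without any one array of the 4 species. LOC102589404 and LOC102601908 also lost the call with arrays scaled to one spread (0.095 and 0.145) and with quantile normalization between arrays (0.067 and 0.085), and LOC102601908 with a trended, robust spread (0.065).

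**Figure D5:**
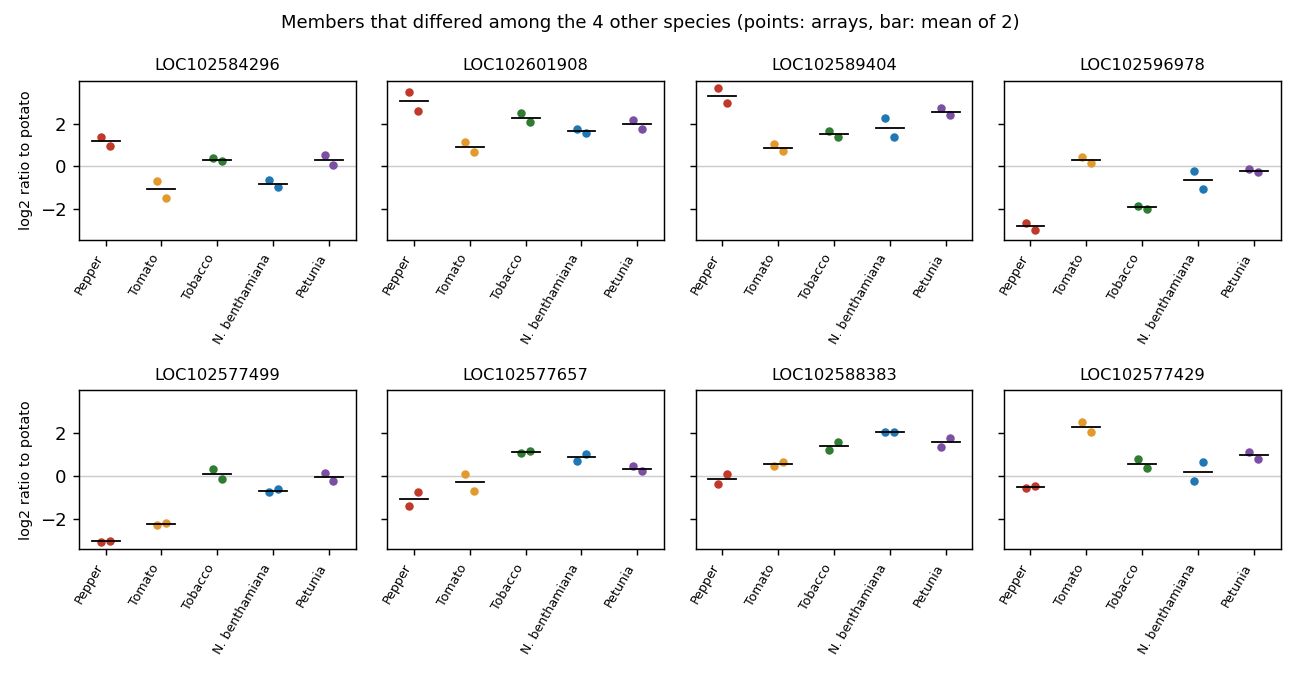
Log2 ratio to potato (y axis) in pepper and the 4 other species (x axis) for 8 genes. Each had an adjusted p under 0.05 among the 4 others in limma's F test without the replicate block. Points are arrays and bars the mean of 2 arrays; tomato is the lowest of the 4 in LOC102584296, LOC102601908 and LOC102589404, and lies at -2.26 beside pepper at -3.05 in LOC102577499.

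Over all 7561 features with a value on all 10 arrays, pepper minus the mean of the other 4 species passed limma's adjusted p of 0.05 in 1308 (17.3%), with 567 above (7.5%) and 741 below (9.8%). With the replicate block, 2469 passed (32.7%), 15.9% above and 16.8% below. Of the 295 LOC genes tested, 70 passed, 23.7%. This contrast is the one the genes were chosen on, so for the members it is not read. Without pepper replicate 1 it called 384 features and without pepper replicate 2 it called 515.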

How the data were processed

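The authors extracted signals with GenePix 5.0, removed flagged spots, subtracted the local background and normalized by quantiles in limma (version not given in the sources used here). Each deposited value is the log2 ratio of a spot, with its direction unstated. The 2 spots of a clone were found from the slide layout, on which all 905 pairs of spots with a shared sequence record fell. Clones with several symbols (90) were not named.

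Genes (all spots averaged) and other clones were fitted with limma 3.58.1 in R 4.3.3, 1 coefficient per species over 10 arrays, with Benjamini-Hochberg adjustment at 0.05. The fits were tested on simulated data. Its noise was independent between arrays with 1 common spread, so it could not show the effect of a shared potato extract on the p-values. Same-numbered arrays share a potato extract by their labels, and their deviations from species means correlated at 0.29 to 0.68 in all 10 species pairs (7823 clones). The numbers thus pair the arrays. The fit without a replicate block, which ignores this pairing, stayed the main one. The p-values of single genes come from it unless the block is named. Counts with the block stand beside its counts.

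The genes, rules and tests were chosen with earlier results of these data known. Per-array values were given for up to 10 genes per direction with the largest distance among those with both pepper arrays outside the 8 others, and for the genes just inside the threshold. Other members given by array were those that passed the test among the 4 other species in the main fit, chosen after their values were seen. The 18 lists set by words of gene descriptions matched 0 genes, since the tables hold no descriptions. Alternatives covered the distance, centring, scaling, quantile normalization, the spread, missing values, the replicate block and leaving out each array. Counts were made in Python 3.11.15 with pandas 2.3.3 and scipy 1.17.1, and plots with matplotlib 3.10.9.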

Additional observations from a re-analysis of the deposited data

Results flagged for a closer look

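Both pepper arrays lay on the other side of 0 from all 8 other arrays in 5 genes, with pepper means of -1.24 for LOC102593129, -0.43 for LOC102577526, -0.64 for LOC102583272, -0.45 for LOC102604230 and -0.54 for LOC102577646. The difference between pepper and the other species was not tested in these genes, since they were chosen for it. In 8 genes the other 4 species differed among themselves by limma's F test without the replicate block. The adjusted p was 0.0011 for LOC102577499, 0.0046 for LOC102596978, 0.0076 for LOC102577429 and 0.013 for LOC102588383. It was 0.016 for LOC102584296, 0.028 for LOC102577657, 0.028 for LOC102589404 and 0.043 for LOC102601908. No species had the 4 arrays needed to look for outlying arrays.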

How the results depend on the processing

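With a distance of 0.4, 44 genes met the rule (15 above, 29 below), and with 1 it was 7 (1 above, 6 below). With 1 array left out, 22 to 40 genes met it, 5 to 16 above and 17 to 24 below. Of the 27, 18 were kept without pepper replicate 1, 22 without N. benthamiana replicate 2 and 23 to 27 without each of the other arrays, and 15 others came in without pepper replicate 2. A distance of 0.6 held without any single array in 2 of the 8 genes above and 12 of the 19 below. In these settings the potato extract does not cancel for the species left with 1 array. The count above was 16 without pepper replicate 2, and 5 without pepper replicate 1, without tomato replicate 2, without N. benthamiana replicate 2 and, chosen after seeing the data, with replicate 2 arrays only. Replicate 1 arrays kept 22 of the 27 and replicate 2 arrays 21. Centring each array kept all 27 genes and scaling to one spread 24.

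The replicate block raised the calls to 2469 features for pepper minus the mean of the others, 4436 features among the 4 others and 16 members among the 4 others, and a threshold of 0.01 gave 519, 633 and 3. With 1 array left out these counts were 384 to 1407, 565 to 2380 and 3 to 8. The features among the 4 others numbered 565 and 622 without tomato replicates 1 and 2 and 1473 without tobacco replicate 1, and the members called 4 and 3 without the tomato arrays and 5 without tobacco replicate 2. All 8 members called among the 4 kept their call with the block on all arrays. Single arrays were left out only in the fit without the block. No distance of a member turned its sign under any setting run.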
